A study of Homo sapiens with 10 samples.

Results

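Messenger RNA levels of 30 genes of cholesterol and fatty acid synthesis were followed in U2OS cells, a human osteosarcoma line, through heat shock and through knockdown of YTHDC1. The genes were taken by symbol, and all 30 were found among the 63187 genes of the count table. They were grouped by role into 7 genes of the mevalonate steps, 11 of the squalene and sterol steps, 5 of the control of the SREBP transcription factors, 2 of sterol transport and 5 of fatty acid synthesis and desaturation. The list does not hold every enzyme of these pathways. All 30 passed the filter on low counts, so each was tested, among 17290 genes in all.

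The 3 groups had 2 RNA-seq libraries each. The first was heat-shocked cells with YTHDC1 knocked down, the next heat-shocked cells with a control reagent, and the last unheated cells with the control reagent. The labels name the reagents both si and sh. The sources used here do not state how hot or long the heat shock was, or whether cells recovered after it. There was no unheated knockdown group, so an effect of the knockdown without heat could not be measured. YTHDC1 is a nuclear protein that reads N6-methyladenosine, a modified base of messenger RNA. The series also holds 4 samples of methylated RNA immunoprecipitation, which are not analysed here, and the values below do not measure that base.

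Libraries held between 13252370 and 15500743 counts, and mitochondrially encoded genes took 5.095% to 6.122% of them. Levels are given as CPM, the counts per 1000000 of the TMM-scaled library size. The targeted gene YTHDC1 had 121 and 118 CPM in heat-shocked knockdown cells. Heat-shocked controls held 268 and 258 CPM of it, and unheated controls 213 and 225 CPM. The knockdown libraries thus held 45.4% of the level of the heat-shocked controls. All 8 mesenchymal and osteoblast lineage markers averaged above 1 CPM over the 6 libraries, VIM and COL1A1 among them. So did all 7 epithelial markers, although KRT5 averaged 0.70 CPM in heat-shocked controls. Their summed level was 992 ± 26.9 CPM in the knockdown, 878 ± 18.7 CPM in heat-shocked controls and 758 ± 37.0 CPM in unheated controls (SD, n = 2). In the knockdown against heat-shocked controls EPCAM, CDH1, KRT14, KRT8 and KRT5 were called higher (log2 fold changes 1.90, 1.84, 1.85, 0.56 and 1.05), KRT18 was called lower (-0.41) and CLDN4 was not called (-0.16). The mesenchymal and osteoblast lineage markers went both ways in that comparison. CDH2, RUNX2, COL1A1 and CD44 were called higher (0.88, 0.63, 0.42 and 0.28). THY1, SPARC and VIM were called lower (-0.56, -0.51 and -0.47), and FN1 was not called (0.57). The part of such cells or states in the results below was not tested. Of the blood cell markers HBB and CD3E had no count and PTPRC averaged 0.34 CPM. HBA2 had 5 and 23 counts in the knockdown, 14 and 88 in heat-shocked controls and 0 in unheated controls, and was not called. Of 6 adipocyte and hepatocyte markers 0 averaged above 1 CPM, and ADIPOQ and LEP had no count. PLIN1 had 10 and 14 counts in the knockdown, 14 and 15 in heat-shocked controls and 1 in each unheated control, and was called higher with heat (log2 fold change 3.91, adjusted p = 6.85e-05). The part of such signals in the results was not tested. In bulk RNA, fewer cells that express a gene and less of its RNA per cell cannot be told apart.

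Cholesterol is built from acetyl-CoA through mevalonate, the isoprenoid farnesyl diphosphate, squalene and lanosterol. When sterols in the endoplasmic reticulum run low, the escort protein SCAP carries the SREBP precursors to the Golgi, where proteases free a fragment that enters the nucleus and raises genes of this pathway. INSIG proteins hold SCAP back when sterols are plentiful. SREBF2 encodes the form best known for cholesterol genes, and SREBF1 forms best known for fatty acid genes.

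The promoters of a few members are shown because these genes changed most or carry the motif of the SREBP factors. RefSeq promoters (GRCh38.p14) were available for 26 of the 30 genes, with 35 annotated starts, and the 250 bases before each start were searched on both strands. Entries for ACAT2, FDFT1, SQLE and FASN were not in the table used. HSD17B7 changed most with heat and is shown from chr1:162790452-162790701 (plus strand). INSIG1, at chr7:155297628-155297877 (plus strand), and MVK, at chr12:109573544-109573793 (plus strand), rose most in the knockdown. SREBF2, at chr22:41832855-41833104 (plus strand), held the single match to the sterol regulatory element. Capitals mark motif matches: the sterol regulatory element TCACNCCAC, the E-box CACGTG, and the CCAAT box CCAAT, which reads ATTGG from the other strand.
HSD17B7: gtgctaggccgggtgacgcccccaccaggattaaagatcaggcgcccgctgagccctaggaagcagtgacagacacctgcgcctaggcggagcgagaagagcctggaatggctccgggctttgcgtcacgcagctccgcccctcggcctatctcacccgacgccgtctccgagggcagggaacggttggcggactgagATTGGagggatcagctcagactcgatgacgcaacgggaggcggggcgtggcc
INSIG1: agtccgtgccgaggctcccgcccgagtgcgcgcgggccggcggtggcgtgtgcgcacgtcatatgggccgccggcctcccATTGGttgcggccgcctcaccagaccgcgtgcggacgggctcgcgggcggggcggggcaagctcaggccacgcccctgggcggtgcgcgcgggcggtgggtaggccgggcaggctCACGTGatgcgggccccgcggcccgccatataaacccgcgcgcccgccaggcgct
MVK: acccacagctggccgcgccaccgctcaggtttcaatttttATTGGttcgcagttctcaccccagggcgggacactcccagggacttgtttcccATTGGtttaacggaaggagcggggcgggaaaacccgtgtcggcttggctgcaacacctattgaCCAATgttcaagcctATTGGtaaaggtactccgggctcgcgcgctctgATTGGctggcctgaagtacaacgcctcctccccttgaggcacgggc
SREBF2: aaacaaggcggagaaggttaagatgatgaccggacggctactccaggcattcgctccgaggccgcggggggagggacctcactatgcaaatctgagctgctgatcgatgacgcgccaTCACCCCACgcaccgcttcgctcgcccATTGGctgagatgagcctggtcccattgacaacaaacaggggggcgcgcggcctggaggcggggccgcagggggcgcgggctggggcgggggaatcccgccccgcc

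The CCAAT box occurred in 21 of the 35 member promoters, which was 60% of them, against 32.0% of the 35116 promoters in the RefSeq table. MVK had 5 matches, whereas HSD17B7, INSIG1 and SREBF2 had 1 each. The E-box lay in 4 member promoters of 3 genes, SC5D, SCAP and INSIG1, against 6.34% of all promoters. The sterol regulatory element as spelled here was found in 1 member promoter, that of SREBF2, and in 0.883% of all promoters. The heat shock element, searched as 3 alternating GAA and TTC units with any 2 bases between units, was in 0 of 35 member promoters and 0.441% of all. None of the matches printed above overlapped another. Some genes have several starts whose windows overlap, and a missing match says only that these letters were not in this window.

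In RPKM, which is CPM per kilobase of deposited gene length, the members spanned more than 2 orders of magnitude. SCD, the desaturase that makes oleate from stearate, had the highest level in each group, at 254 ± 11.4 RPKM in the knockdown, 358 ± 10.7 RPKM in heat-shocked controls and 276 ± 3.07 RPKM in unheated controls. FASN, the multienzyme fatty acid synthase, stood next at 89.5 ± 5.78, 91.2 ± 5.34 and 119 ± 1.69 RPKM in the same order of groups. In unheated controls FDFT1, SQLE and FDPS followed at 75.0, 63.1 and 57.1 RPKM. MVK and HSD17B7 were low, at 3.57 and 3.27 RPKM, and did not differ from each other beyond the spread of their libraries. TM7SF2 and CYP51A1 were lowest at 1.74 and 0.94 RPKM. CYP51A1 encodes lanosterol demethylase. The count table lists 2 more identifiers on its strand, ENSG00000285772 and ENSG00000289027, whose listed exons start at 92112159 and 92112176 on chromosome 7, inside CYP51A1 (92112153 to 92134803, GRCh38), and end at 92113843. They held 0 and at most 5 counts per library. The sources used here do not say how reads shared by such identifiers were counted, so the level of CYP51A1 is uncertain.

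**Figure D1:**
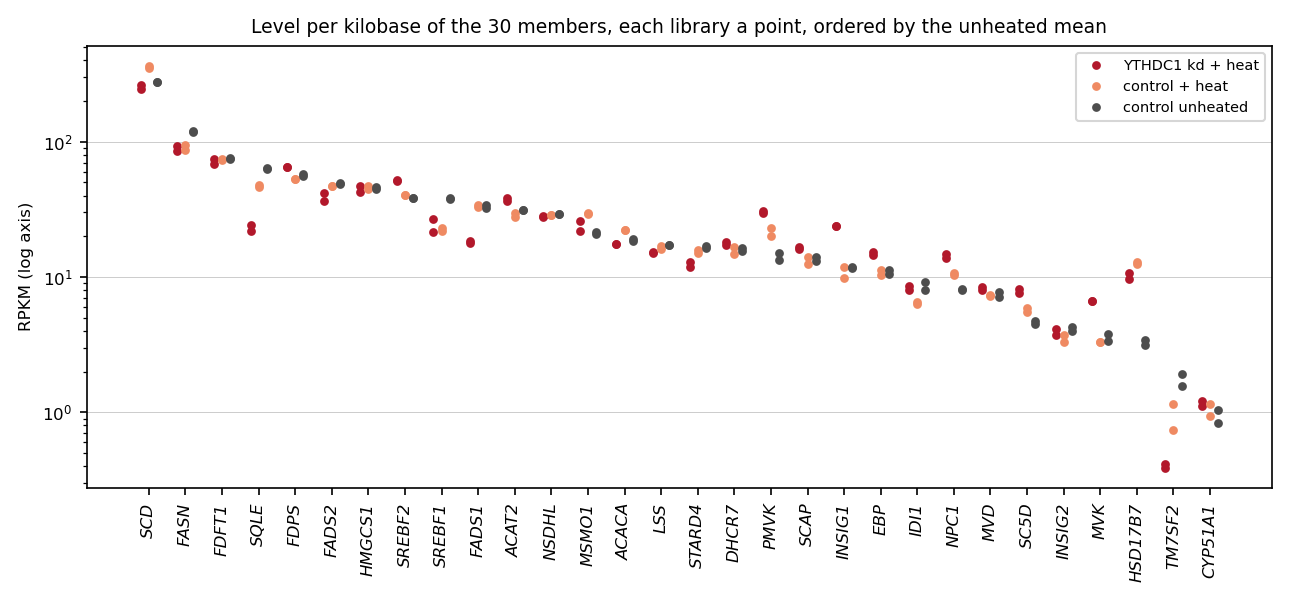
Level of the 30 members per kilobase of deposited gene length in RPKM on a log axis, with each library as a point, for heat-shocked knockdown, heat-shocked control and unheated control cells. Genes run from SCD, at 276 RPKM in unheated controls, to CYP51A1, at 0.94 RPKM, and the groups part most for HSD17B7, SQLE and TM7SF2.

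The first comparison asked how heat shock changed these genes in control cells. Of the 30 members 7 were higher, 5 lower and 18 not called at an adjusted p of 0.05. HSD17B7, a 3-ketosteroid reductase that acts when methyl groups are removed from the sterol ring, rose 3.89-fold and stood apart from the rest. PMVK, MSMO1, NPC1, SCD, SC5D and ACACA rose by smaller amounts, and TM7SF2, SREBF1, SQLE, IDI1 and FASN fell. Over all 17290 genes 43.9% were called, 20.6% higher and 23.3% lower, so the members' share of 40.0% was near the background in this test. With the DESeq2 Wald test 12 members and 5161 of the 17290 genes were called. Counting genes with a mean level of 5 CPM or more, the shares called were 39.3% of 28 members and 53.1% of 11574 genes. The median log2 fold change was -0.03 for the members and -0.03 for all genes tested. Without regard to sign the median was smaller for the members, at 0.12 against 0.28 for all genes tested. At 5 CPM or more it was 0.11 for members and 0.22 for all. The test was edgeR's quasi-likelihood F test with adjustment over all genes, and fold changes are given with their standard error.

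**Figure D2:**
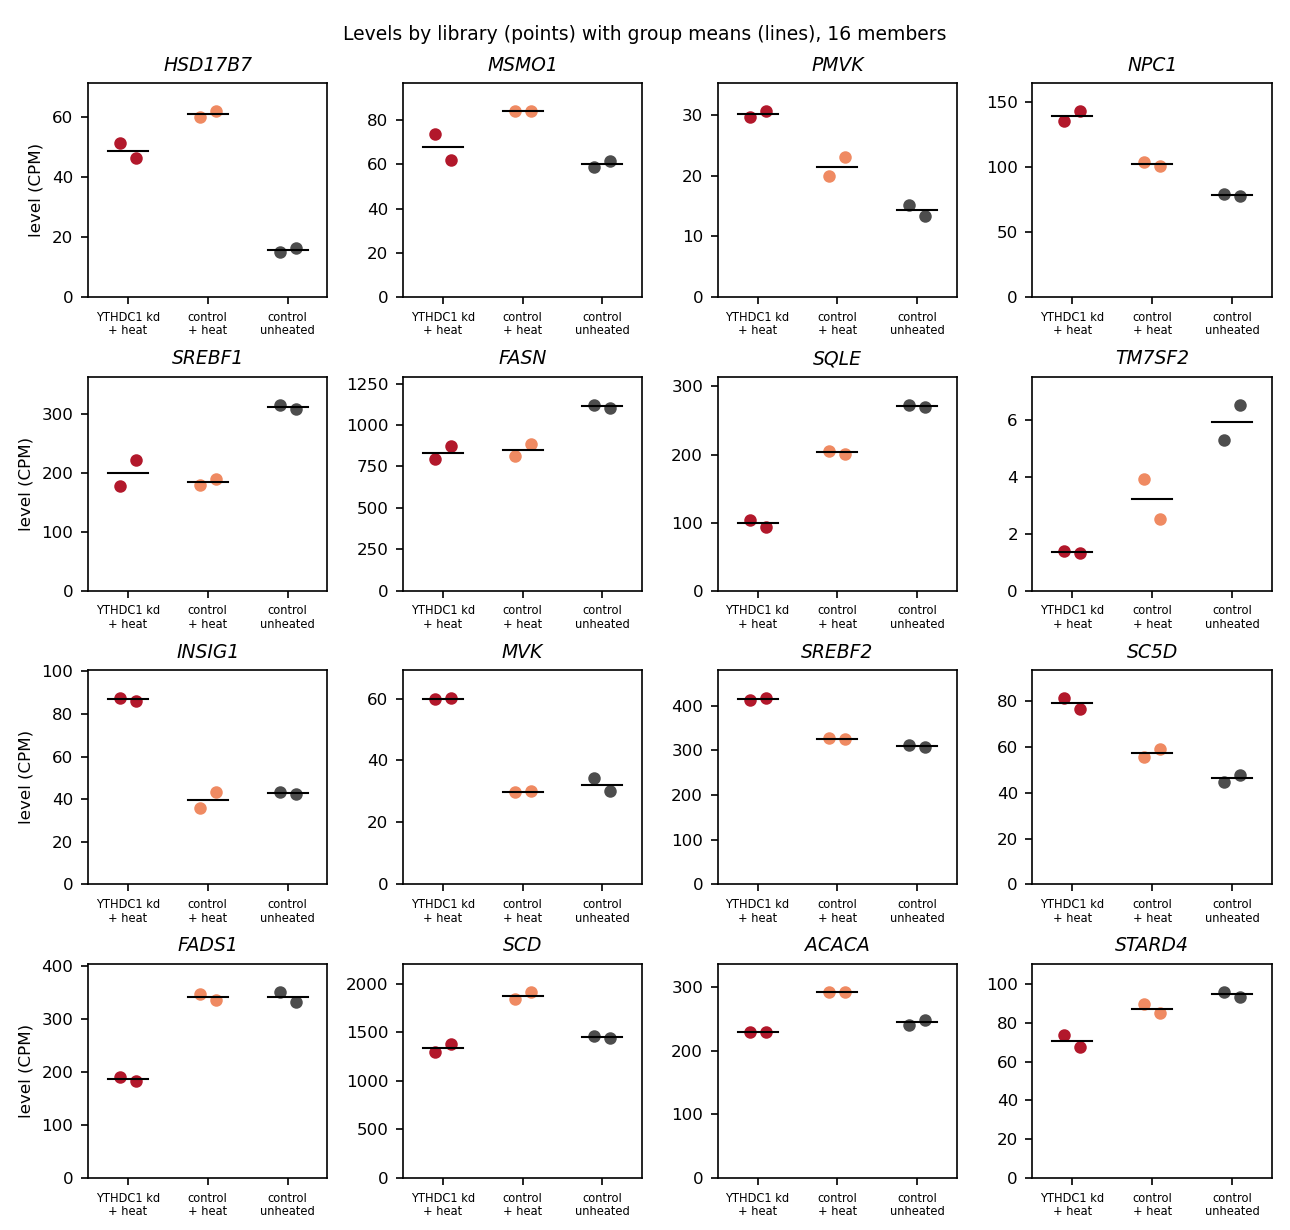
Levels of 16 members in CPM, with each library as a point and the group mean as a line, for heat-shocked knockdown cells (left), heat-shocked controls (middle) and unheated controls (right). HSD17B7 is 60.1 and 61.9 CPM in heat-shocked controls against 15.01 and 16.3 CPM in unheated ones, and INSIG1, MVK, SQLE and FADS1 part the knockdown from both control groups.

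Among the mevalonate steps 1 of 7 genes rose and 1 fell with heat (14.3% each), against 20.6% and 23.3% of all genes tested. PMVK, which adds the second phosphate to mevalonate, had 20 and 23.0 CPM in heat-shocked controls against 15.2 and 13.4 CPM in unheated controls (log2 fold change 0.59 ± 0.11, adjusted p = 6.05e-05). IDI1, the isomerase that supplies both isoprenoid building blocks, had 28.1 and 27.0 CPM in heat-shocked controls against 34.4 and 39.3 CPM in unheated controls (-0.42 ± 0.08, adjusted p = 2.26e-04). In PMVK and IDI1 the 2 groups did not overlap, which with heat held for 70% of members and 72.2% of all genes tested. HMGCS1, which makes HMG-CoA, had 311 and 297 CPM in heat-shocked and 297 and 308 CPM in unheated controls (95% interval of the log2 fold change -0.10 to 0.11). ACAT2, which makes acetoacetyl-CoA, had 73.8 and 78.7 CPM in heat-shocked controls against 83.1 and 82.7 CPM in unheated controls, at a log2 fold change of -0.12 (adjusted p = 0.0885). With knockdown replicate 1 or 2 left out of the joint fit, ACAT2, FDPS and STARD4 were called lower with heat (adjusted p between 0.0216 and 0.0447). ACAT2 overlaps TCP1, a chaperonin subunit gene on the other strand, by 615 bp in RefSeq, and TCP1 rose with heat (log2 fold change 0.94). The strand setting of the counting is not stated, so reads of these overlaps, in IDI1 and ACAT2, cannot be assigned with certainty.

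Of the 11 squalene and sterol genes 3 rose (27.3%) and 2 fell (18.2%) with heat, against 20.6% and 23.3% of all genes tested. HSD17B7 had 60.1 and 61.9 CPM in heat-shocked controls against 15.01 and 16.3 CPM in unheated controls, a 3.89-fold rise (log2 fold change 1.96 ± 0.08, adjusted p = 8.12e-16). Both heated libraries lay far above both unheated ones. Pseudogenes named after it, HSD17B7P1 and HSD17B7P2, averaged 0.00 and 0.20 CPM. DDR2, a collagen receptor gene on the same strand that ends 3297 bp before HSD17B7, was also called higher with heat (log2 fold change 0.62) and lower in the knockdown (-0.38), and its part in the change of HSD17B7 was not tested. MSMO1, the sterol C4-methyl oxidase that acts in the same demethylation, had 83.9 and 84.1 CPM in heat-shocked controls against 58.8 and 61.5 CPM in unheated controls (0.48 ± 0.07, adjusted p = 2.32e-06). NSDHL, the dehydrogenase of that step, was level at 57.7 and 57.3 CPM in heat-shocked and 58.7 and 57.9 CPM in unheated controls (95% interval -0.14 to 0.10).

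SC5D, a late sterol desaturase, rose as well, with 55.5 and 59.0 CPM in heat-shocked controls against 44.8 and 47.7 CPM in unheated controls (0.31 ± 0.07, adjusted p = 4.39e-04). SQLE, the squalene epoxidase and a control point of the pathway, fell to 206 and 201 CPM in heat-shocked controls, against 273 and 270.2 CPM in unheated controls (-0.42 ± 0.05, adjusted p = 1.23e-07). TM7SF2, a sterol C14 reductase, had 3.92 and 2.51 CPM in heat-shocked controls against 5.30 and 6.55 CPM in unheated controls (-0.89 ± 0.22, adjusted p = 0.00184). That call rested on few reads and was lost without heat-shocked control replicate 2 (-0.59, adjusted p = 0.0622).

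In SREBP control 1 of 5 genes (20%), SREBF1, was called with heat, and it was lower, as were 23.3% of all genes tested. SREBF1 had 179 and 191 CPM in heat-shocked controls against 316 and 308 CPM in unheated controls, 1.69-fold lower (-0.76 ± 0.09, adjusted p = 3.92e-04), and its groups lay far apart. RAI1, which overlaps SREBF1 by 120 bp on the other strand, was called lower too (-0.64). SREBF2 was at 0.08 ± 0.04 (adjusted p = 0.163), SCAP at -0.03 and INSIG2 at -0.24 (adjusted p = 0.094). INSIG1 had 36.0 and 43.3 CPM in heat-shocked controls against 43.4 and 42.2 CPM in unheated controls, so the groups overlapped. Its log2 fold change of -0.11 (adjusted p = 0.268) became a call without heat-shocked control replicate 2 (-0.25, adjusted p = 0.0258).

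Of the transport genes NPC1, which moves cholesterol out of lysosomes, rose to 104 and 101 CPM in heat-shocked controls, against 79.1 and 78.0 CPM in unheated controls (0.38 ± 0.05, adjusted p = 2.64e-06). STARD4, a soluble sterol carrier, was at -0.12 (adjusted p = 0.0924). The fatty acid genes were split. FASN fell to 815 and 885 CPM in heat-shocked controls, against 1124 and 1102 CPM in unheated controls (-0.39 ± 0.05, adjusted p = 6.72e-07). SCD rose to 1836 and 1916 CPM, against 1460 and 1437 CPM in unheated controls (0.37 ± 0.05, adjusted p = 3.42e-07). ACACA, the carboxylase that makes malonyl-CoA, had 292 CPM in each heat-shocked control and 240.3 and 248 CPM in unheated controls (0.26 ± 0.04, adjusted p = 3.45e-05). FADS1 and FADS2, the desaturases of polyunsaturated fatty acids, were at -0.00 and -0.06 (adjusted p = 0.983 and 0.369).

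The split of heat calls depended on scaling. With library size alone 18 members were called in heat shock, 7 higher and 11 lower, since ACAT2, FDPS, LSS, INSIG2, STARD4 and FADS2 were then called lower. The higher share was then 38.9% of the calls, against 58.3% with TMM scaling. Over all genes it was 36.5% of the calls with library size alone, against 46.9% with TMM scaling.

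The second comparison asked what YTHDC1 knockdown changed in heat-shocked cells. Here 12 members rose, 10 fell and 8 were not called. The genes that rose held 5 of 7 of the mevalonate steps and 3 of 5 of SREBP control, led by MVK (2.01-fold) and INSIG1 (2.19-fold). The genes that fell held 4 of 5 of fatty acid synthesis, led by FADS1 (1.83-fold lower). Of the 11 squalene and sterol genes 5 fell and 3 rose, and TM7SF2 (2.33-fold lower, from few reads) and SQLE (2.06-fold lower) fell most. The members' share called was 73.3%, against 54.5% of all genes tested, of which 27.4% were higher and 27.2% lower. At 5 CPM or more the shares were 75.0% of 28 members and 65.0% of 11574 genes. The median log2 fold change was 0.13 for the members and -0.00 for all genes tested. Without regard to sign the median was 0.32 for the members, 0.37 for all genes tested and 0.31 for genes of 5 CPM or more. The larger share called thus did not go with larger changes than in all genes tested.

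**Figure D3:**
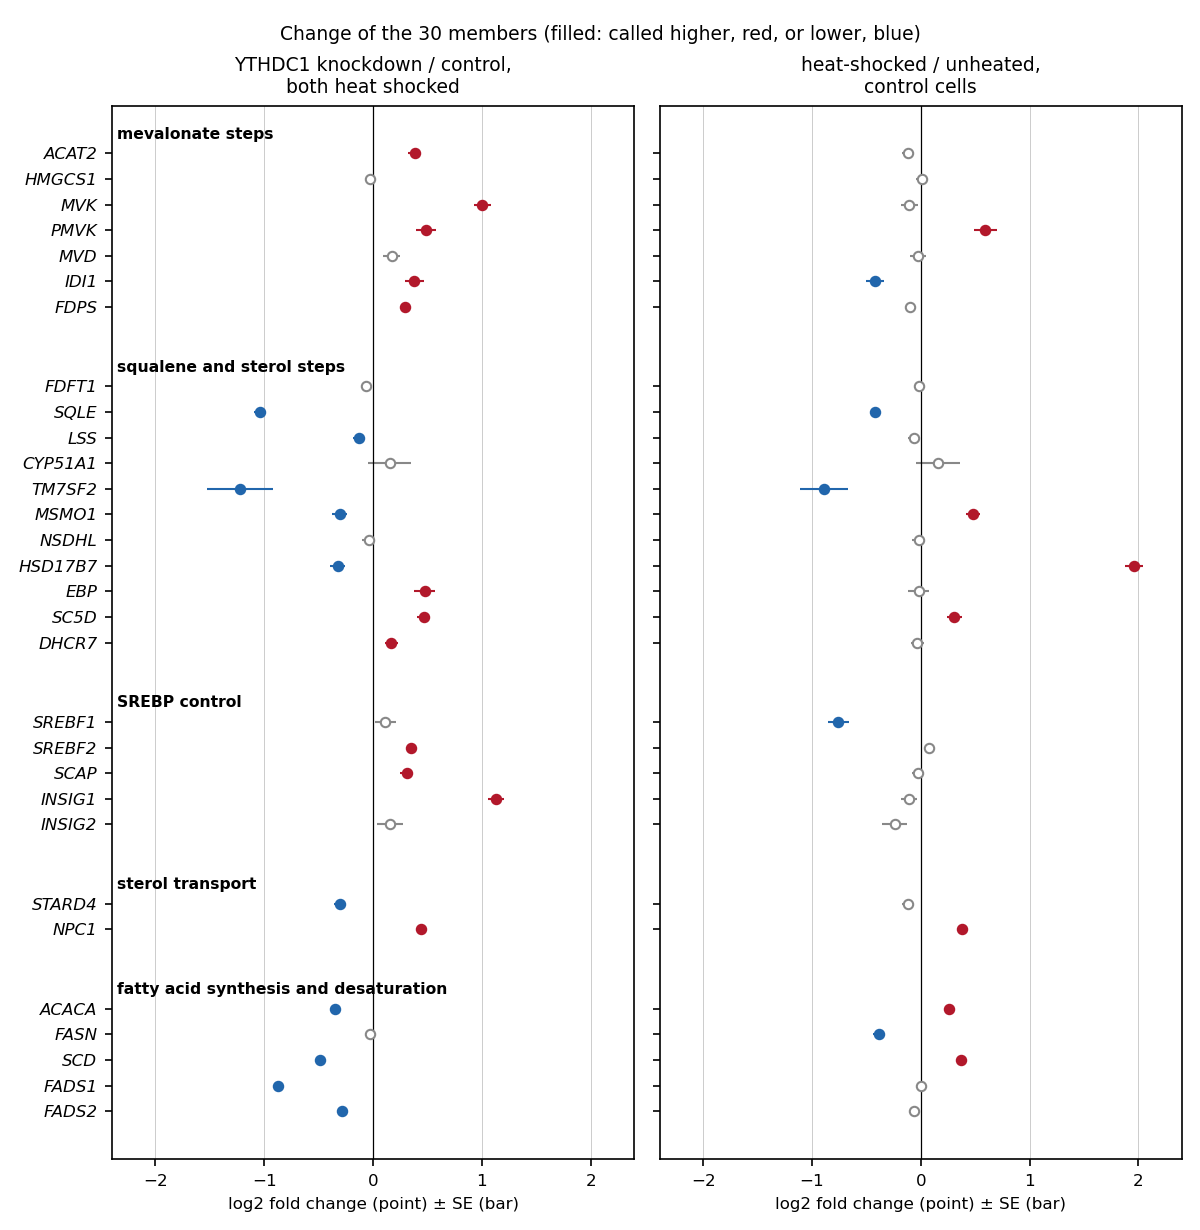
Log2 fold change of each member with its standard error (bars), in the knockdown against control comparison (left) and in the heat shock comparison of control cells (right), grouped by role. Filled points were called higher (red) or lower (blue), and open points were not called; HSD17B7 stands at 1.96 with heat, INSIG1 at 1.13 and SQLE at -1.04 in the knockdown.

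Of the 7 mevalonate genes 5 rose in the knockdown (71.4%) and 0 fell, with a median log2 fold change of 0.38. Over all genes tested 27.4% were higher and 27.2% lower, and at 5 CPM or more 32.8% and 32.2%. MVK, mevalonate kinase, had 59.9 and 60.1 CPM in the knockdown and 29.8 and 30.03 CPM in heat-shocked controls (log2 fold change 1.00 ± 0.07, adjusted p = 4.12e-11). The unheated controls were near the heated ones at 34.2 and 30.1 CPM, so the knockdown libraries alone were high. MMAB, a cobalamin enzyme gene that overlaps MVK by 233 bp on the other strand, averaged 26.2 CPM in the knockdown and 17.3 CPM in heat-shocked controls and rose too (0.60). PMVK had 29.6 and 30.7 CPM in the knockdown against 20 and 23.0 CPM in heat-shocked controls (0.49 ± 0.10, adjusted p = 1.33e-04).

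IDI1 had 37.1 and 34.6 CPM in the knockdown against 28.1 and 27.0 CPM in heat-shocked controls (0.38 ± 0.08, adjusted p = 5.53e-04). That is within the range of the unheated controls. ACAT2 rose to 102 and 96.4 CPM in the knockdown, against 73.8 and 78.7 CPM in heat-shocked controls (0.38 ± 0.06). FDPS, which makes farnesyl diphosphate, rose to 242 CPM in each knockdown library, against 197 and 198 CPM in heat-shocked controls (0.29 ± 0.04). HMGCS1 and MVD were not called, with 95% intervals of -0.13 to 0.08 and 0.01 to 0.33. MVD, the decarboxylase of the pathway, was called higher without knockdown replicate 2 (0.21, adjusted p = 0.0445), and HMGCS1 was called lower without knockdown replicate 1 (-0.11, adjusted p = 0.0484).

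The squalene and sterol genes went both ways, with 3 of 11 higher (27.3%) and 5 lower (45.5%), against 27.4% and 27.2% of all genes tested. SQLE had 104 and 93.7 CPM in the knockdown, against 206 and 201 CPM in heat-shocked controls (-1.04 ± 0.05, adjusted p = 4.74e-14). The 3 groups of SQLE did not overlap, with the knockdown lowest and the unheated controls highest. Between knockdown and heat-shocked controls the groups did not overlap in 80% of members and 75.9% of all genes tested. TM7SF2 had 1.41 and 1.32 CPM in the knockdown, against 3.92 and 2.51 CPM in heat-shocked controls (-1.22 ± 0.30, adjusted p = 0.00103). VPS51, which ends 10 bp before TM7SF2 on the same strand, averaged 39.2 CPM. It was called lower with heat (-0.20) and higher in the knockdown (0.40). ZNHIT2, 173 bp from TM7SF2 on the other strand, was called lower with heat (-1.02) and not called in the knockdown. The part of these neighbours in the values of TM7SF2 was not tested. HSD17B7 had 51.1 and 46.2 CPM against 60.1 and 61.9 CPM in heat-shocked controls (-0.33 ± 0.07, adjusted p = 3.00e-04). MSMO1 had 73.7 and 62.1 CPM against 83.9 and 84.1 CPM in heat-shocked controls (-0.31 ± 0.07, adjusted p = 3.88e-04).

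EBP, SC5D and DHCR7 were the 3 called higher. EBP, a sterol isomerase, had 25.9 and 27.2 CPM in the knockdown against 20 and 18.3 CPM in heat-shocked controls (0.47 ± 0.09, adjusted p = 1.59e-04). SC5D had 81.3 and 76.7 CPM against 55.5 and 59.0 CPM in heat-shocked controls (0.46 ± 0.06, adjusted p = 8.77e-07). DHCR7, which makes cholesterol from its direct precursor, was at 0.17 ± 0.06 (adjusted p = 0.0172) and LSS, the lanosterol synthase, at -0.13 ± 0.05 (adjusted p = 0.0312). Both of these small calls were fragile. That of DHCR7 was lost without knockdown replicate 1 or heat-shocked control replicate 1 (adjusted p = 0.0665 and 0.357), and that of LSS without knockdown replicate 1, heat-shocked control replicate 2 or either unheated replicate (adjusted p between 0.0507 and 0.164). FDFT1, squalene synthase, was at -0.06 (adjusted p = 0.27), and was called lower without knockdown replicate 1 (-0.13, adjusted p = 0.018).

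All 5 genes of SREBP control had a positive log2 fold change in the knockdown, as had 8588 of all 17290 genes tested. Of the 5, 3 were called higher (60%), against 27.4% of all genes, and SREBF1 and INSIG2 were not called. INSIG1 had 87.4 and 86.3 CPM in the knockdown, against 36.0 and 43.3 CPM in heat-shocked controls (1.13 ± 0.07, 2.19-fold, adjusted p = 2.32e-12). It had the largest rise of the 30 members in this comparison. Its divergent transcript INSIG1-DT, which overlaps it by 1103 bp, rose too (1.85), at 1.3 CPM on average. SREBF2 had 412 and 417 CPM in the knockdown against 328 and 324 CPM in heat-shocked controls (0.35 ± 0.04, adjusted p = 2.58e-07). SCAP had 102 and 105 CPM against 79.1 and 87.8 CPM in heat-shocked controls (0.31 ± 0.06, adjusted p = 9.45e-05). SREBF1 was spread in the knockdown at 178 and 221 CPM, against 179 and 191 CPM in heat-shocked controls, and was not called (0.11 ± 0.09, adjusted p = 0.357). Without knockdown replicate 1 it was called higher (0.26, adjusted p = 7.46e-06). INSIG2 was at 0.16 ± 0.12 (95% interval -0.09 to 0.40).

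The transport genes parted. NPC1 rose to 135 and 143 CPM in the knockdown, against 104 and 101 CPM in heat-shocked controls (0.44 ± 0.05, adjusted p = 1.00e-07). STARD4 fell to 73.9 and 67.5 CPM, against 89.8 and 85.0 CPM in heat-shocked controls (-0.30 ± 0.06, adjusted p = 1.13e-04).

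Of the fatty acid genes 4 of 5 fell in the knockdown (80%) and 0 rose, with a median log2 fold change of -0.35. Of all genes tested 27.2% were lower and 27.4% higher, and at 5 CPM or more 32.2% and 32.8%. Their summed level was 2994 ± 147 CPM in the knockdown and 3859 ± 99.9 CPM in heat-shocked controls, most of it SCD and FASN. FADS1, the delta-5 desaturase, had 189.7 and 183 CPM in the knockdown, against 347 and 336 CPM in heat-shocked controls (-0.87 ± 0.05, adjusted p = 1.39e-13). Unheated controls had 351 and 332 CPM, so both control groups overlapped and the knockdown lay below them. FADS2, the delta-6 desaturase, fell too, with 383 and 438 CPM in the knockdown and 498 and 500.5 CPM in heat-shocked controls (-0.28 ± 0.05, adjusted p = 5.16e-05). FADS1 and FADS2 lie head to head on opposite strands and overlap by 801 bp. SCD fell to 1292 and 1376 CPM in the knockdown, against 1836 and 1916 CPM in heat-shocked controls (-0.49 ± 0.05, adjusted p = 2.52e-09). ACACA had 229.9 and 229 CPM against 292 CPM in each heat-shocked control (-0.35 ± 0.04, adjusted p = 3.94e-07). FASN had 796 and 872 CPM against 815 and 885 CPM in heat-shocked controls (95% interval -0.13 to 0.08).

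Set side by side, 4 members rose with heat and fell in the knockdown. They were HSD17B7, MSMO1, SCD and ACACA. PMVK, SC5D and NPC1 were higher in both comparisons, SQLE and TM7SF2 lower in both, and IDI1 lower with heat and higher in the knockdown. HMGCS1, MVD, FDFT1, CYP51A1, NSDHL and INSIG2 were called in neither. The shares of all genes with these joint patterns were not counted, so the member counts have no background beside them. The heat-shocked controls enter both comparisons, on top in the first and below in the second, so a chance deviation in them moves the pair in opposite directions.

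A last comparison set the heat-shocked knockdown cells against unheated controls, and it shares each of its groups with one of the others. In it 13 members were higher in the knockdown cells, 9 lower and 8 not called. The share called was 73.3% of members and 62.2% of all genes, with 31.1% of all genes higher and 31.1% lower. At 5 CPM or more it was 75.0% of members and 71.4% of all. HSD17B7 stayed high at 3.11-fold the unheated level (log2 fold change 1.64 ± 0.09, adjusted p = 2.55e-14). PMVK was 2.11-fold (1.08 ± 0.10), INSIG1 2.03-fold (1.02 ± 0.07) and MVK 1.86-fold (0.90 ± 0.07) the unheated level. TM7SF2 was 4.32-fold lower (-2.11 ± 0.28), SQLE 2.75-fold lower (-1.46 ± 0.05) and FADS1 1.83-fold lower (-0.88 ± 0.05) than in unheated controls. ACACA and IDI1, with called changes in both other comparisons, were not called here, at -0.09 and -0.04 (adjusted p = 0.081 and 0.682). SCD and MSMO1, also called in both others, were near the unheated level at -0.12 and 0.17 (adjusted p = 0.0268 and 0.0311). Both calls, and that of DHCR7 (0.14, adjusted p = 0.0417), were lost without knockdown replicate 1 (adjusted p = 0.138, 0.665 and 0.165) and without either unheated replicate (adjusted p between 0.0664 and 0.349).

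Other genes of lipid metabolism were read from 5 lists. Their counts stand beside a background of 20.6% of all genes higher and 23.3% lower with heat, and 27.4% higher and 27.2% lower in the knockdown. In SREBP processing and sterol-regulated degradation 3 of 14 genes rose (21.4%) and 8 fell (57.1%) with heat, with a median log2 fold change of -0.19 against -0.03 for all genes. PAQR3, a Golgi protein that binds SCAP, had 118 and 119 CPM in heat-shocked controls against 38.4 and 42.5 CPM in unheated controls (1.55 ± 0.07). TMEM97, a sterol-binding membrane protein that interacts with NPC1, rose by 0.79, and the ubiquitin ligase RNF139 and the deubiquitinase USP20 fell by 0.70 and 1.01. In the knockdown 6 of the 14 rose (42.9%) and 4 fell (28.6%). MBTPS1, the site-1 protease that first cuts SREBP in the Golgi, had 233 and 212 CPM in the knockdown against 119 and 119.9 CPM in heat-shocked controls (0.90 ± 0.05, adjusted p = 3.44e-13). USP20, ERLIN2 and RNF139 rose by 0.85, 0.73 and 0.54.

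Among 27 tested genes of other fatty acid and lipid synthesis, 8 rose (29.6%) and 5 fell (18.5%) with heat, and 8 rose (29.6%) and 9 fell (33.3%) in the knockdown. Malic enzyme ME1, a source of NADPH, rose with heat to 86.5 and 88.7 CPM, against 37.7 and 38.0 CPM in unheated controls (1.21 ± 0.06). The elongase ELOVL5 rose by 0.97 and the dehydratase HACD2 by 0.49, while DGAT2, which makes triglyceride, fell by 1.22. In the knockdown DGAT2 rose by 1.68, from low counts. The elongases moved in opposite directions, with ELOVL7 at 22.4 and 21.8 CPM in the knockdown against 9.15 and 7.96 CPM in heat-shocked controls (1.37 ± 0.12). ELOVL6 was at 30.2 and 31.2 CPM against 67.1 and 62.9 CPM in heat-shocked controls (-1.08 ± 0.07). HACD3, a dehydratase of the elongation cycle, fell by 0.98.

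Among 8 tested LXR and cholesterol efflux genes 1 rose (12.5%) and 3 fell (37.5%) with heat, and 3 rose (37.5%) and 4 fell (50%) in the knockdown. ABCA1, which exports cholesterol to apolipoproteins, had 2.39 and 2.30 CPM in the knockdown, against 6.77 and 6.67 CPM in heat-shocked controls (-1.52 ± 0.20, adjusted p = 3.65e-07) and 10.7 and 10.9 CPM in unheated controls. Its 3 groups did not overlap. ABCG1, another sterol exporter, fell by 0.92 in the knockdown, while MYLIP, a ubiquitin ligase of lipoprotein receptors, rose by 1.27 and SMPDL3A, a phosphodiesterase, by 0.52. With heat ABCA1 fell by 0.68, ABCG1 by 0.48 and the lysophospholipid acyltransferase LPCAT3 by 0.41.

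**Figure D4:**
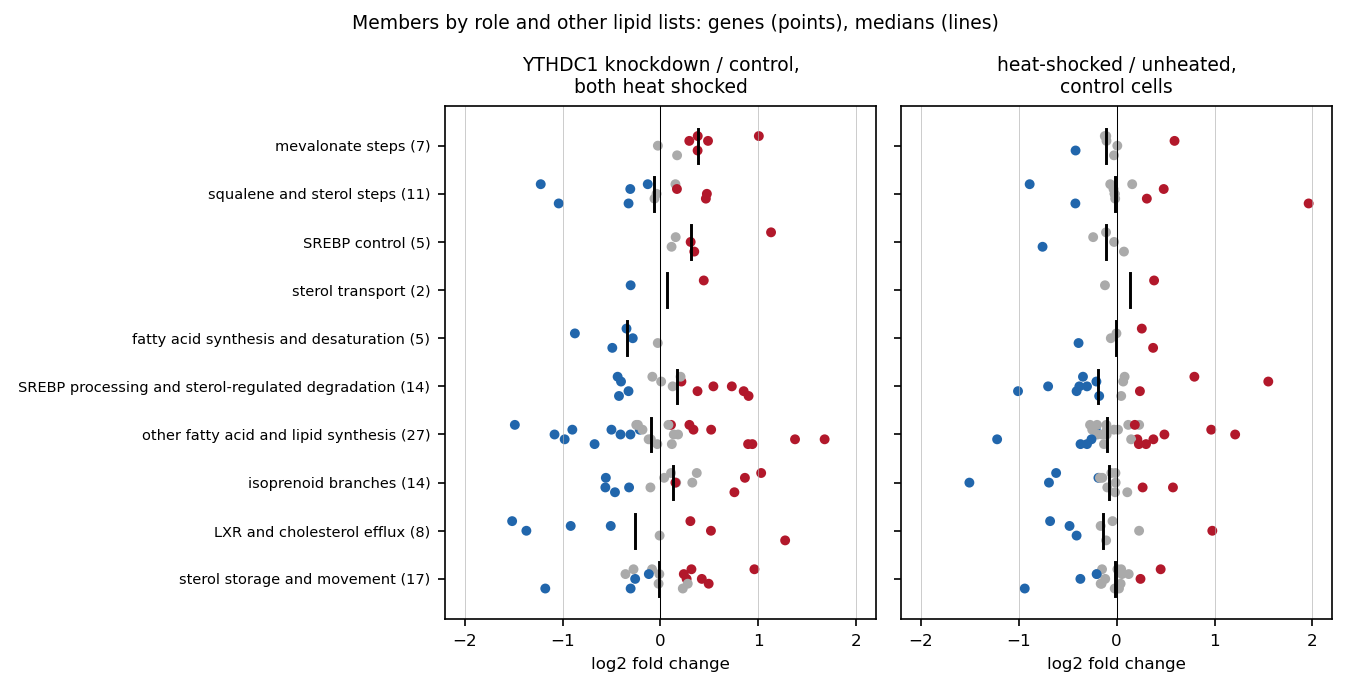
Log2 fold change of each tested gene (points; red higher, blue lower, grey not called) in the member roles and 5 other lipid lists, with list medians as lines, in the knockdown comparison (left) and the heat shock comparison (right). In the knockdown the median is 0.38 for the mevalonate steps and -0.35 for fatty acid synthesis and desaturation.

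Among 14 genes of isoprenoid branches 2 rose (14.3%) and 4 fell (28.6%) with heat, and 4 rose and 4 fell in the knockdown (28.6% each). DOLK, which makes dolichyl phosphate, fell by 1.50 with heat, RABGGTB, a Rab prenyltransferase subunit, by 0.69 and GGPS1, which makes geranylgeranyl diphosphate, by 0.62, while FNTA, the shared prenyltransferase subunit, rose by 0.58. In the knockdown COQ2, an enzyme of ubiquinone synthesis, rose by 1.03, ICMT, which methylates prenylated proteins, by 0.86 and PDSS2 by 0.75, while PDSS1, its partner in making the ubiquinone tail, fell by 0.56. Among 17 genes of sterol storage and movement 2 rose (11.8%) and 3 fell (17.6%) with heat, and 6 rose (35.3%) and 4 fell (23.5%) in the knockdown. OSBPL5 fell by 0.94 with heat and GRAMD1A by 0.37, and ARV1 and SCARB1 rose by 0.45 and 0.24. In the knockdown the lysosomal lipase LIPA rose by 0.96, OSBPL2 by 0.49 and OSBP by 0.42, and the sterol transfer protein GRAMD1C fell by 1.18.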

How the data were processed

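Counts of RNA-seq reads per gene were deposited by the authors as whole numbers, not normalized, for 6 libraries of 3 groups with 2 each. Per the submitters' processing notes, the build was GRCh38 and the tools named were HISAT2 2.2.1 and featureCounts 2.0.2, beside Trim Galore 0.6.7, FastQC 0.11.8, MACS2, R 4.4.0, DESeq2 1.36.0 and SAMtools 1.17, with no order or role. Strandedness of the counting, the gene annotation and the treatment of multiply mapped reads were not given in the sources used here.

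Symbols were paired with 62666 of 63187 identifiers. Tests were edgeR 4.0.16 quasi-likelihood F tests in R 4.3.3 (robust, TMM scaling, filterByExpr with a minimum count of 10). All 6 libraries were in 1 fit, with 3 residual degrees of freedom. The fit moderates each gene's spread by that of the other genes, so p-values and intervals do not rest on those degrees of freedom alone. P-values were adjusted by Benjamini-Hochberg over all 17290 genes tested, with 0.05 as the threshold. CPM uses TMM-scaled library sizes, and RPKM divides it by the gene length deposited with the counts. No label states that libraries of 1 group are separate cultures. The p-values therefore measure only the spread between these samples, possibly technical. Within each group that spread was above sampling noise (chi-square per gene between 1.55 and 3.54).

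The members and lists were chosen with earlier results of these data known. From the other lists the text names up to 4 called genes of at least 5 CPM with the largest change per comparison, and the neighbours named lie within 5000 bp and were picked after their values were seen. Alternatives were library size alone, DESeq2 size factors, no filter on low counts, the DESeq2 1.42.0 Wald test, a fit of only the 2 groups compared, a replicate block, and leaving out each library. Promoter sequences and positions are RefSeq's, on GRCh38.p14. No genome sequence was used.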

Additional observations from a re-analysis of the deposited data

How the results depend on the processing

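Of the 30 members, 21 kept their direction and side of the threshold under all 12 alternatives in the heat shock comparison, 24 in the knockdown comparison and 25 in the knockdown against unheated controls, where a change of sign between values that were both not called was not counted. No called value changed sign. The number of members called stayed between 12 and 18 in heat shock, between 20 and 23 in the knockdown, and between 19 and 22 against unheated controls. Leaving out 1 library gave 12 to 15, 21 to 23 and 19 to 22 members. Over all genes, leaving out 1 library gave 5826 to 8369 calls in heat shock, 8110 to 9203 in the knockdown and 9247 to 11002 against unheated controls. A lone library left in a group is assumed to vary like those of the other groups. LSS and DHCR7 were no longer called in the knockdown by DESeq2 (adjusted p = 0.124 and 0.0959). Over all genes DESeq2 called 5161 in heat shock, 6967 in the knockdown and 8416 against unheated controls. The edgeR test called 7592, 9425 and 10756. The members called by DESeq2 were 12, 20 and 19, so how their share compares with that of all genes depends on the test. In the fit of only the 2 groups SREBF2 was called higher with heat (0.10, adjusted p = 0.0144). The replicate numbers are shared between groups, but nothing says that they pair libraries, and deviations of same-numbered libraries correlated at -0.02 to 0.01. With the replicate block 12, 22 and 22 members were called. Over all genes the block gave 7494, 9372 and 10684 calls. Library size alone moved the median of all genes in heat shock by -0.07 on the log2 scale. Depth limits TM7SF2 and CYP51A1 most, at a few CPM each.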

Other observations

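Some genes beside the members were called where the member was not. CETN2, a centrosome protein gene that starts 306 bp from NSDHL on the other strand, fell in the knockdown (log2 fold change -1.11), while NSDHL was at -0.04 (adjusted p = 0.604). FEN1, a flap endonuclease gene 2389 bp from FADS1, fell with heat (-1.16), while FADS1 was at -0.00. CTSB, a lysosomal protease gene 3226 bp from FDFT1, rose in the knockdown (1.00), while FDFT1 was at -0.06. PTPN23, which lies 246 bp from SCAP, fell with heat (-0.59), while SCAP was at -0.03.

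The pseudogene SCDP1 averaged 5.78 CPM, the most of the pseudogenes named after a member. CYP51A1P1 and CYP51A1P2 averaged 0.85 and 1.02 CPM, against 4.38 CPM for CYP51A1 itself. Whether reads are shared between these copies was not tested.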
